A study of Mus musculus with 5 samples.

Results

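Transcripts of 43 cell cycle genes were compared between tumor and lung libraries of cells that the labels give as PMN-MDSCs, polymorphonuclear myeloid-derived suppressor cells. The genes were taken by symbol from a table of 55250 rows with a gene symbol, as 10 genes of G1 and of the G1/S transition, 11 genes of S phase and 22 genes of G2 and mitosis. Cyclin A2 (Ccna2) also acts in S phase and stathmin (Stmn1) also acts outside mitosis, and both were placed with the G2/M genes. The study comprised 3 lung libraries (replicates 1, 2 and 3) and 2 tumor libraries (replicates 2 and 3), all labelled wild type and described by the submitters as holding 20000000 paired reads from a minimum of 2000000 sorted cells. The strain, the age of the mice, the tumor model, the sort markers and the number of animals are not given in the sources read here, and no treatment is labelled apart from the tissue. The p-values therefore describe the scatter of these 5 libraries, which could be technical. Values are TPM, the usual unit of transcript abundance, which is corrected for transcript length and adds up to 1000000 over a library. The read depth behind a single value is unknown.

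The cell cycle is driven by cyclins, which rise and are destroyed in turn, and by the cyclin-dependent kinases that they switch on. D cyclins with CDK4 or CDK6, and then E cyclins with CDK2, phosphorylate the retinoblastoma protein in G1 and free the E2F factors, which switch on the genes of DNA replication. Cyclins A and B with CDK1 take the cell through G2 into mitosis, in which the spindle, the kinetochores and the spindle checkpoint sort the chromosomes before the anaphase promoting complex marks the cyclins for destruction. Mature neutrophils do not divide, while their precursors in the bone marrow do.

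The tumor libraries stood apart from the lung libraries, and their markers went against the label. The summed TPM of 16 neutrophil markers lay between 37922 and 63941 in lung, against 1198 TPM in tumor replicate 2 and 4003 TPM in tumor replicate 3, and all 16 fell. The label names a cell of the neutrophil lineage, of which these genes are the defining markers. All 20 pan-leukocyte markers fell as well, from sums of 15665 to 16518 TPM in lung to 788 and 2154 TPM in tumor. Of 14 epithelial markers 13 rose, and their sum went from 59.7 to 125 TPM in lung up to 6812 and 6859 TPM in tumor. For fibroblast markers, 5 of 8 called higher, the sum was 21.8 to 26.3 TPM in lung and, in tumor, 1261 and 224 TPM. Macrophage markers were mixed, with 3 of 7 called higher and 3 lower and sums of 676 to 765 TPM in lung and 449 and 1056 TPM in tumor. Markers of other blood and vessel cells were low in tumor. B cell markers (4 of 4), endothelial markers (5 of 5) and 1 of the 2 tested T and NK cell markers fell, to tumor sums of at most 22.9 TPM. Markers of dividing neutrophil precursors were low in both tissues, with a sum over 8 genes of 25.2 to 29.98 TPM in lung and, in tumor, 0.991 and 3.03 TPM, where Ctsg and Ms4a3 were listed at 0 in both libraries. The share of TPM from mitochondrially encoded genes was 2.67% to 4.40% for lung libraries, against 9.01% and 15.1% for tumor libraries. The part of these markers and of the mitochondrial share in the cell cycle differences was not tested. In such bulk libraries fewer cells of a type and less RNA per cell cannot be told apart.

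Most cell cycle genes were higher in tumor, with S phase and G2/M genes rising almost throughout and G1 genes split. Of the 43 genes, 36 rose and 1, the D cyclin gene Ccnd3, fell, while 6 were not called (limma on log2(TPM + 1), adjusted p under 0.05 and at least 1.5-fold). Among all 16387 tested genes 31.6% were called higher and 27.0% lower. All 43 genes had a mean of at least 1 TPM and entered the test. Both tumor libraries lay above all lung libraries for 38 of the 43 genes, against 39.9% of all tested genes, and below them for Ccnd3 alone, against 35.7% of all tested genes. The groups overlapped for Ccnd2, Ccne2, Cdc25a and Cdc25b. The median difference between tumor and lung was 2.39 on the log2(TPM + 1) scale over the 43 genes and 0.018 over all tested genes. In the authors' deposited table none of the 43 genes had a false discovery rate under 0.05, the lowest being 0.0629 for Mcm6, and 13 had an unadjusted p under 0.05. Of the 34956 rows with a false discovery rate in the authors' deposited table, 0.638% lay under 0.05.

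The 3 groups are described by their counts, medians and sums, and no test compared one group with another. In the G1 group 5 of 10 genes rose, 1 fell and 4 were not called, with a median difference of 1.07. All 11 S phase genes rose, with a median of 2.55 and a range from 0.63 to 3.17. In the G2/M group 20 of 22 genes rose and 2 were not called, with a median of 2.55 and a range from -0.03 to 4.45. The closeness of the S phase and G2/M medians holds for a pseudocount of 1, since a pseudocount of 0.1 gave 2.75 and 3.10, and the median folds of mean TPM were 6.76 and 9.10. The G1 sum was 636, 736 and 639 TPM in lung and, in tumor, 749 and 646 TPM, and these ranges overlap. The S phase sum was 137, 120 and 142 TPM in lung and, in tumor, 535 and 448 TPM, a ratio of means of 3.69. For G2/M genes the sums were 94.2, 85.2 and 91.3 TPM in lung and 732 and 544 TPM in tumor, a ratio of 7.07. The plot of levels by library shows the separation gene by gene. Each direction is relative to the total TPM. Under a centring on the pan-leukocyte markers, the median difference of all tested genes became 3.55 and that of the 43 genes 5.92, with 14256 of all tested genes called higher and 83 lower.

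**Figure D1:**
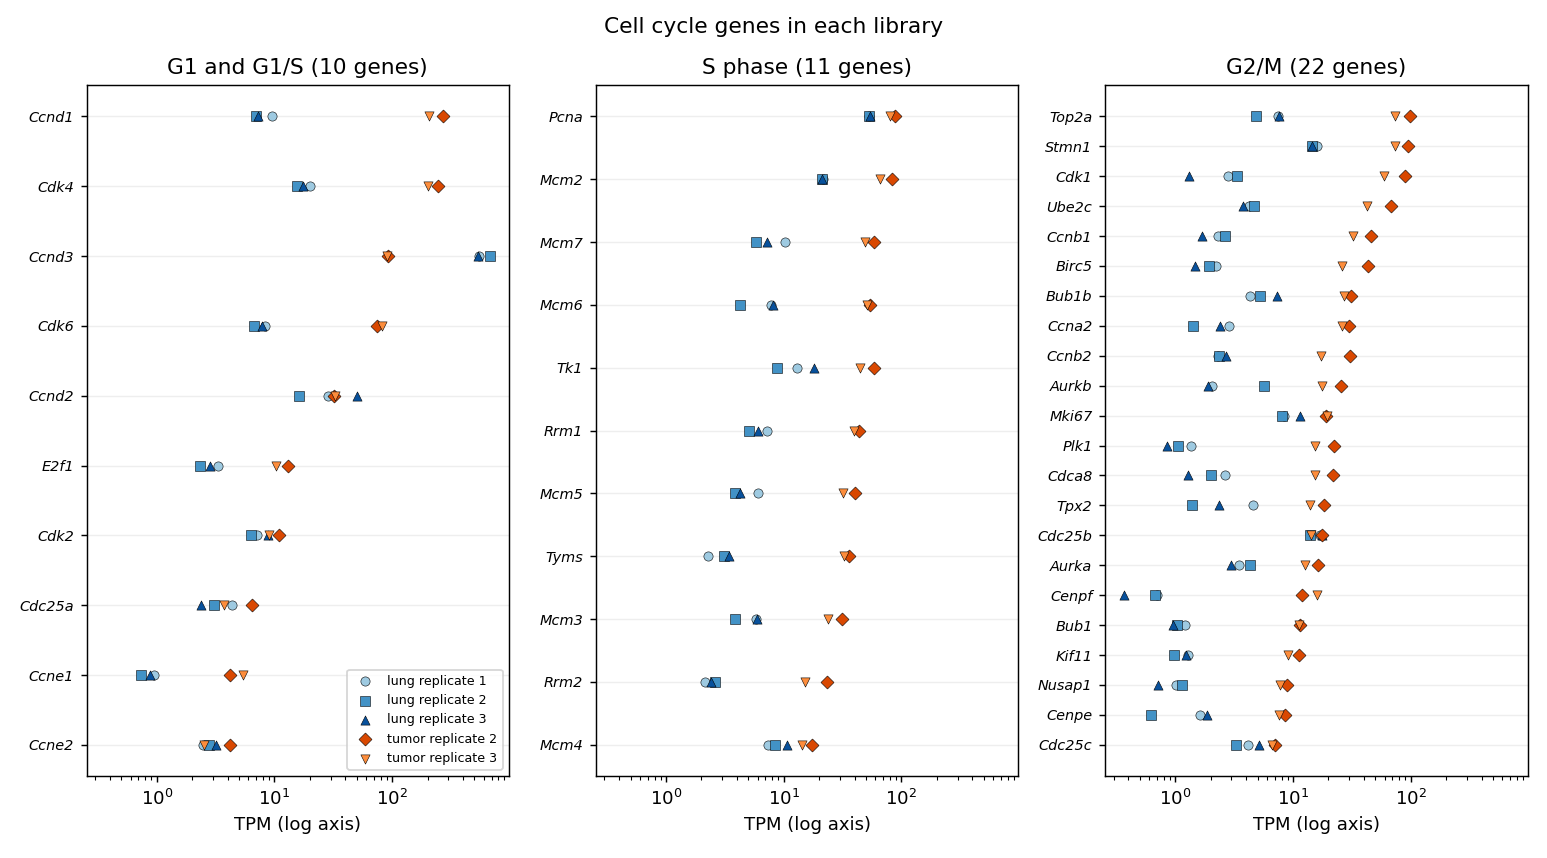
TPM of the 43 cell cycle genes in each of the 5 libraries, on a log axis, with G1 and G1/S genes, S phase genes and G2/M genes in separate panels and genes ordered by their tumor mean. Circles, squares and triangles in blue are lung replicates 1, 2 and 3, and diamonds and inverted triangles in orange are tumor replicates 2 and 3. The tumor symbols lie to the right of the lung symbols for 38 genes and to the left for Ccnd3, whose difference was not called with libraries centred on pan-leukocyte markers.

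The 3 D cyclins, which pair with CDK4 and CDK6, moved in different directions. Ccnd1 (cyclin D1; chromosome 7, 144929931 to 144939925, GRCm38) was at 9.56, 7.0 and 7.20 TPM in lung and at 269 and 206 TPM in tumor. It rose 29.9-fold by mean TPM (7.92 ± 1.42 to 237 ± 44.3, SD), a difference of 4.74 ± 0.21 (SE) on the log2(TPM + 1) scale with an adjusted p of 0.000901. The groups lay far apart, and the fold was close to that of Cdk1 (29.8). Ccnd3 (cyclin D3; chromosome 17, 47505051 to 47599691) was at 551, 675 and 538 TPM in lung and at 91.5 and 91.3 TPM in tumor. It fell by 2.66 ± 0.17 on the log2 scale (adjusted p = 0.000992), with a lung mean 6.43 times the tumor mean. Among the settings tried, the call for Ccnd3 was lost only with libraries centred on pan-leukocyte markers (difference 0.87, adjusted p = 0.134). That centring raised every difference by the same amount, and the median of all tested genes became 3.55. Ccnd1 stayed higher in every setting tried. Ccnd2 (cyclin D2; chromosome 6, 127125162 to 127152193) was at 28.6, 16.1 and 50.8 TPM in lung and at 32.3 and 32.5 TPM in tumor. Both tumor values lay inside the lung range, and the difference of 0.17 ± 0.48 was not called (adjusted p = 0.773).

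The make-up of the D cyclins therefore differed between the tissues, a measure within each library that does not depend on how the library was scaled. Ccnd3 supplied 93.5%, 96.7% and 90.3% of D cyclin TPM in lung, against 23.3% and 27.7% in tumor. Ccnd1 supplied 1.62%, 1.00% and 1.21% in lung, and 68.4% and 62.4% in tumor, a difference of 64.2 percentage points. Summed D cyclin TPM was 589, 698 and 596 in lung, and lower at 392 and 330 in tumor. An exact two-sided permutation test of the Ccnd1 share gave p = 0.1, the smallest that 10 arrangements of 3 and 2 libraries allow (0.15 after Benjamini-Hochberg adjustment over 6 families). The neutrophil, pan-leukocyte, B cell and endothelial markers given above fell beside Ccnd3, with the largest sums in lung for neutrophil markers. Epithelial markers (13 of 14 called) and fibroblast markers (5 of 8 called) rose beside Ccnd1, and macrophage markers were mixed. The part of these cell types was not tested.

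The partner kinases of the D cyclins rose together. Cdk4 (chromosome 10, 127063534 to 127067920) was at 20.2, 15.6 and 17.3 TPM in lung and at 243 and 203 TPM in tumor, 12.6-fold higher (3.59 ± 0.18, adjusted p = 0.000901). Cdk6 (chromosome 5, 3341485 to 3531008) was at 8.24, 6.65 and 7.85 TPM in lung and at 74.6 and 82.5 TPM in tumor, 10.4-fold higher (3.22 ± 0.17, adjusted p = 0.000901). Neither kinase overlapped between the groups. Their proportions stayed close while their levels differed: Cdk4 made up 71.0%, 70.1% and 68.8% of the pair in lung and 76.5% and 71.2% in tumor. The exact permutation p for this share was 0.1, the smallest possible (0.15 adjusted over 6 families), for a difference of 3.85 points, which was 1.16 points without tumor replicate 2 and 6.54 points without tumor replicate 3. The levels also show where the D cyclins and kinases stood among the G1 genes. Ccnd3 was the highest of the 10 genes in lung at a mean of 588 TPM, followed by Ccnd2 at 31.8 TPM and Cdk4 at 17.7 TPM. In tumor the order began with Ccnd1 at 237 TPM and Cdk4 at 223 TPM, whose library values overlap, and Ccnd3 followed at 91.4 TPM.

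Genes of the later G1/S step gave smaller differences or none that passed the test. E2f1, an activator of replication genes, was at 3.32, 2.33 and 2.83 TPM in lung and at 12.9 and 10.4 TPM in tumor, and it rose 4.12-fold (1.73, adjusted p = 0.00262). Ccne1 (cyclin E1) was at 0.949, 0.729 and 0.870 TPM in lung and at 4.18 and 5.37 TPM in tumor, a rise of 1.64 ± 0.24 (adjusted p = 0.00408). Its paralog Ccne2 (cyclin E2) was at 2.48, 2.78 and 3.18 TPM in lung and at 4.20 and 2.52 TPM in tumor, so the groups overlapped (0.17 ± 0.26, adjusted p = 0.596). Of the E cyclins 1 was therefore called and 1 was not. Ccne1 supplied 27.7%, 20.8% and 21.5% of E cyclin TPM in lung and 49.9% and 68.1% in tumor (exact permutation p = 0.1, the smallest possible, and 0.15 adjusted over 6 families). Cdk2, the kinase that binds the E cyclins, was at 7.10, 6.29 and 8.78 TPM in lung and at 10.8 and 9.0 TPM in tumor. Tumor lay just above lung, and the difference of 0.39 was not called (adjusted p = 0.166). Cdc25a, a phosphatase that activates CDK2, was at 4.35, 3.09 and 2.40 TPM in lung and at 6.48 and 3.72 TPM in tumor, with overlapping groups (0.50, adjusted p = 0.231).

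Sequences upstream of the start sites were examined because cell cycle genes are known for shared promoter elements. RefSeq windows on GRCm38.p6, reaching from 250 bases before to 50 bases after a start, were found for 34 of the 43 genes, 36 windows in all. Searched on both strands were the CCAAT box (CCAAT, bound by NF-Y), the cell cycle genes homology region or CHR (TTTGAA, bound by DREAM and MuvB complexes) and 4 words of the E2F site, which were TTCCCGC with its variant TTGCCGC and, as the others, TTGGCGC with its variant TTCGCGC. The words can overlap, since the reverse strand of TTGGCGC shares bases with CCAAT and TTGGCGC runs into the reverse strand of TTCGCGC. Of all 32851 windows in the RefSeq table, 37.4% held a CCAAT box, 17.9% a CHR word and 9.57% an E2F word, and among 13076 windows of tested genes these shares were 37.4%, 12.7% and 16.0%. Of the 8 windows of 7 G1 genes, 3 held a CCAAT box, none a CHR word and 2 (those of Cdc25a and Cdk2) an E2F word. The 120 bases just before the start are shown for the G1 genes Cdk6 (chr5:3343773-3343892, plus strand) and Ccnd3 (chr17:47504931-47505050, plus strand, the first of its 2 windows), which moved in opposite directions. The Cdk6 stretch lies inside the gene as annotated in GENCODE M21, which begins at 3341485, so the RefSeq start used here differs from that start. Neither stretch holds any of the words, so both are in lower case throughout, while the other window of Ccnd3 holds a CCAAT box.
Cdk6: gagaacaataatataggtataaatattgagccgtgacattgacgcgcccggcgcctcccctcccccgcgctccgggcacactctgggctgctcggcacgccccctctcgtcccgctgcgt
Ccnd3: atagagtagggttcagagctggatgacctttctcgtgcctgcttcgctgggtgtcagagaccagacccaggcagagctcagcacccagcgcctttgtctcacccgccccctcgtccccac

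**Figure D2:**
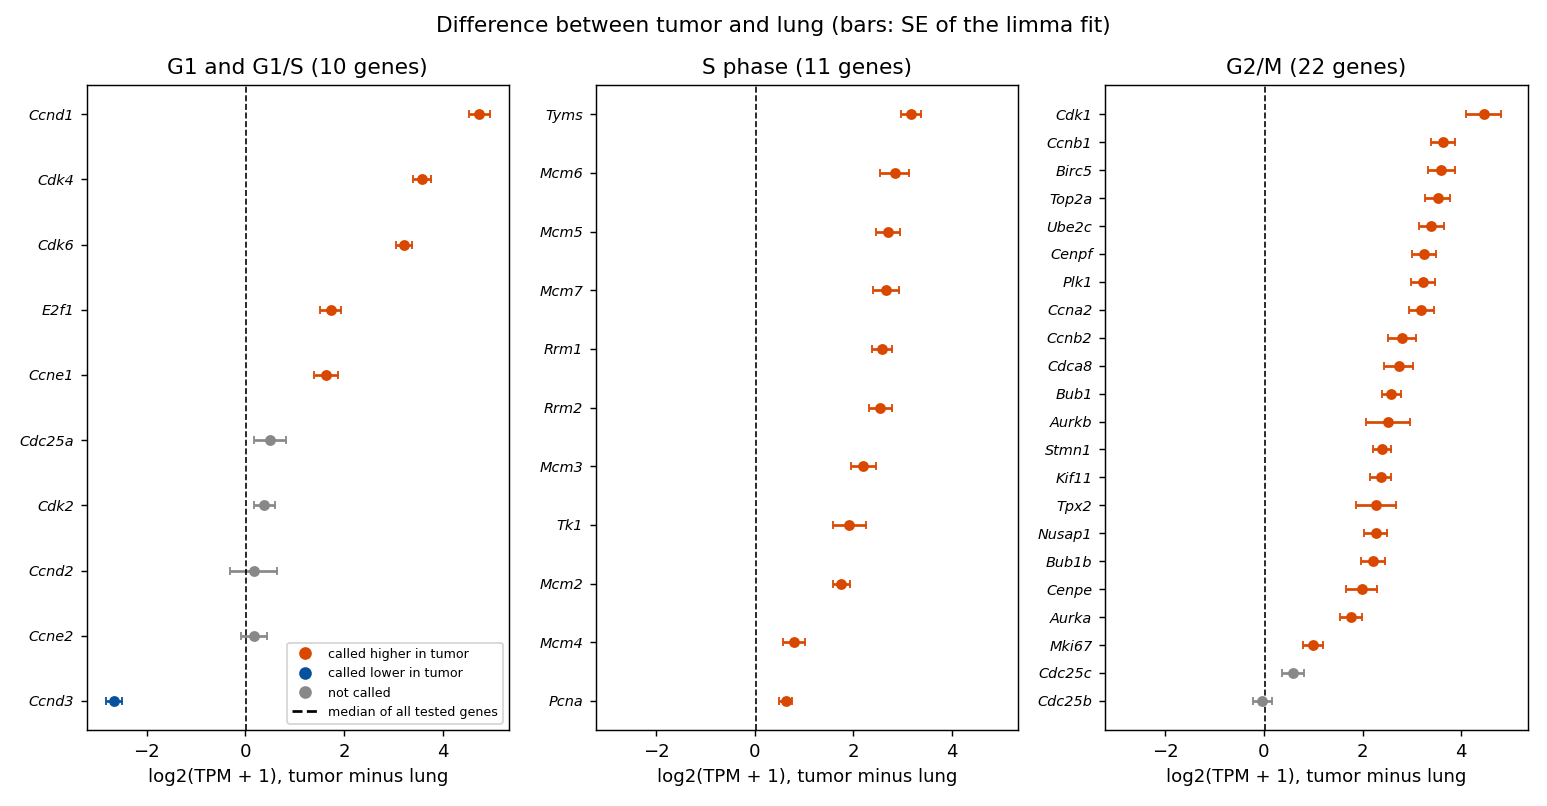
Difference between tumor and lung in log2(TPM + 1) for each gene, with bars of 1 SE from the limma fit, in separate panels for the 3 groups. Orange points were called higher in tumor, the blue point (Ccnd3, at -2.66) was called lower except under the pan-leukocyte centring, gray points were not called, and the dashed line is the median of all tested genes at 0.018. The G1 panel spans from -2.66 to 4.74, while every S phase gene lies to the right of the line.

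All 11 members of the S phase group rose. The MCM proteins form the ring-shaped helicase that opens DNA at origins, with 1 copy of each of 6 subunits. All 6 genes (Mcm2 to Mcm7) rose, and their summed TPM was 59.0, 47.3 and 57.5 in lung and 286 and 236 in tumor. The folds ran from 1.81 for Mcm4 to 7.83 for Mcm6. Mcm6 was at 7.86, 4.26 and 8.17 TPM in lung and at 54.6 and 51.4 TPM in tumor (2.84 ± 0.30, adjusted p = 0.00181). Mcm5, the MCM gene with the smallest p, was at 6.10, 3.82 and 4.25 TPM in lung and at 40.1 and 31.8 TPM in tumor (2.70 ± 0.24, adjusted p = 0.00146). Mcm7 rose 6.91-fold and Mcm3 5.28-fold. Mcm2 was the most abundant MCM transcript in every library, at 21.6, 21.1 and 21.3 TPM in lung and at 84.0 and 65.9 TPM in tumor, a 3.51-fold rise. Although the subunits are used in equal numbers, their transcripts were unequal within a library, the highest exceeding the lowest by 3.72 to 5.53 times in lung and by 4.80 and 4.57 times in tumor. Mcm4, at 7.38, 8.36 and 10.7 TPM in lung and 17.5 and 14.4 TPM in tumor, was the least certain of the 6. Its difference of 0.80 ± 0.22 (adjusted p = 0.0265) no longer passed without lung replicate 1 (adjusted p = 0.0715), lung replicate 2 (0.0818), tumor replicate 2 (0.159) or tumor replicate 3 (0.0775).

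The enzymes that supply nucleotides and the sliding clamp of the polymerases all rose. Tyms, which encodes the thymidylate synthase that makes dTMP, was at 2.26, 3.13 and 3.42 TPM in lung and at 35.6 and 32.7 TPM in tumor, 11.6-fold higher (3.17 ± 0.20, adjusted p = 0.00101). Rrm1, the large subunit of ribonucleotide reductase, was at 7.28, 5.10 and 6.09 TPM in lung and at 43.8 and 39.4 TPM in tumor (2.58 ± 0.20, adjusted p = 0.00119). Rrm2, its small subunit, was at 2.16, 2.63 and 2.42 TPM in lung and at 23.3 and 15.3 TPM in tumor (2.55 ± 0.24, adjusted p = 0.00154). For each of these 3 genes the lowest tumor value was several times the highest lung value. The balance of the reductase subunits did not separate the tissues, with Rrm1 at 77.2%, 66.0% and 71.5% of the pair in lung and 65.3% and 72.1% in tumor (exact permutation p = 0.5, also 0.5 adjusted over 6 families). Tk1, which encodes the thymidine kinase that salvages thymidine, went from 13.1, 8.82 and 18.2 TPM in lung to 58.9 and 44.8 TPM in tumor, a 3.88-fold rise that did not pass without tumor replicate 2 (adjusted p = 0.0666). Pcna, the clamp that holds DNA polymerases on their template, was the most abundant S phase transcript in both tissues and had the smallest difference of the group. It was at 53.6, 53.4 and 54.6 TPM in lung and at 87.8 and 79.9 TPM in tumor, 1.56-fold higher (0.63 ± 0.14, adjusted p = 0.0132). The Pcna groups did not overlap, but its difference fell under the 1.5-fold limit after TMM rescaling (0.50), after median-ratio rescaling (0.45) and without tumor replicate 2 (0.56).

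The S phase windows are described beside all windows, with no test of the difference. Of the 11 windows of 10 S phase genes, 7 (63.6%) held an E2F word, against 16.0% of the windows of tested genes, and 9 (81.8%) held a CCAAT box, against 37.4%. A CHR word was found in 1 window, that of Mcm2. A match is a description of the letters and does not show that a factor is bound. The stretches before the starts of Mcm6 (chr1:128359706-128359825, minus strand) and Rrm1 (chr7:102441575-102441694, plus strand) are shown as S phase genes that carry both words, printed 5′ to 3′ along the gene with CCAAT and E2F words of either strand in capitals.
Mcm6: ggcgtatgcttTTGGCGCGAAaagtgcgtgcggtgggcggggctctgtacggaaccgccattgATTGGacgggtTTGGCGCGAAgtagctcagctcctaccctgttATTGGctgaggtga
Rrm1: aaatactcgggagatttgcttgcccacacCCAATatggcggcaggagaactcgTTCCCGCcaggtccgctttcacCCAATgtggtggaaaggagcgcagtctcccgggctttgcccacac

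Genes of entry into mitosis rose in tumor, with the exception of the CDC25 phosphatases. Cdk1, the kinase that starts mitosis (chromosome 10, 69335146 to 69352938), was at 2.79, 3.37 and 1.31 TPM in lung and at 89.5 and 59.1 TPM in tumor, 29.8-fold higher (4.45 ± 0.36, adjusted p = 0.00125). Ccnb1, its partner cyclin B1 (chromosome 13, 100778650 to 100786570), was at 2.33, 2.63 and 1.69 TPM in lung and at 45.7 and 32.1 TPM in tumor, 17.6-fold higher (3.62 ± 0.24, adjusted p = 0.00105). In neither gene did the tissues overlap. The other cyclins of the group rose too, Ccnb2 9.76-fold and Ccna2 12.6-fold. Of the 2 B cyclins, Ccnb1 made up 50.02%, 52.5% and 38.6% in lung and 59.8% and 64.9% in tumor (exact permutation p = 0.1, the smallest possible, and 0.15 adjusted over 6 families). Plk1, the Polo kinase that promotes mitotic entry, was at 1.36, 1.06 and 0.852 TPM in lung and at 22.1 and 15.5 TPM in tumor, a 17.3-fold rise. The Aurora kinase of the spindle poles, Aurka, rose 4.04-fold and its activator Tpx2 5.87-fold. The call of Tpx2 was lost without tumor replicate 2 (adjusted p = 0.0770).

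None of the 3 CDC25 phosphatases, which remove inhibitory phosphates from CDK1 and CDK2, was called. Cdc25b was at 17.1, 13.9 and 17.6 TPM in lung and at 17.5 and 14.2 TPM in tumor, with overlapping groups and a difference of -0.03 ± 0.19 (adjusted p = 0.903). Cdc25c was at 4.19, 3.30 and 5.19 TPM in lung and at 7.05 and 6.58 TPM in tumor. Its libraries did not overlap, and its difference of 0.60 ± 0.22 was not called (adjusted p = 0.0709), although it passed when mitochondrially encoded genes were left out of the scaling (0.72, adjusted p = 0.0380). Together with Cdc25a, these are 3 of the 6 genes that were not called. Summed CDC25 TPM was 25.6, 20.3 and 25.2 in lung and 31.1 and 24.5 in tumor. Cdc25b was the highest G2/M transcript of the 22 in lung, at a mean of 16.2 TPM, and held 66.7%, 68.5% and 69.9% of the family there and 56.4% and 57.9% in tumor. The share of Cdc25a, at 17.0%, 15.2% and 9.51% in lung and 20.9% and 15.2% in tumor, overlapped (exact permutation p = 0.5, and 0.5 adjusted over 6 families).

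**Figure D3:**
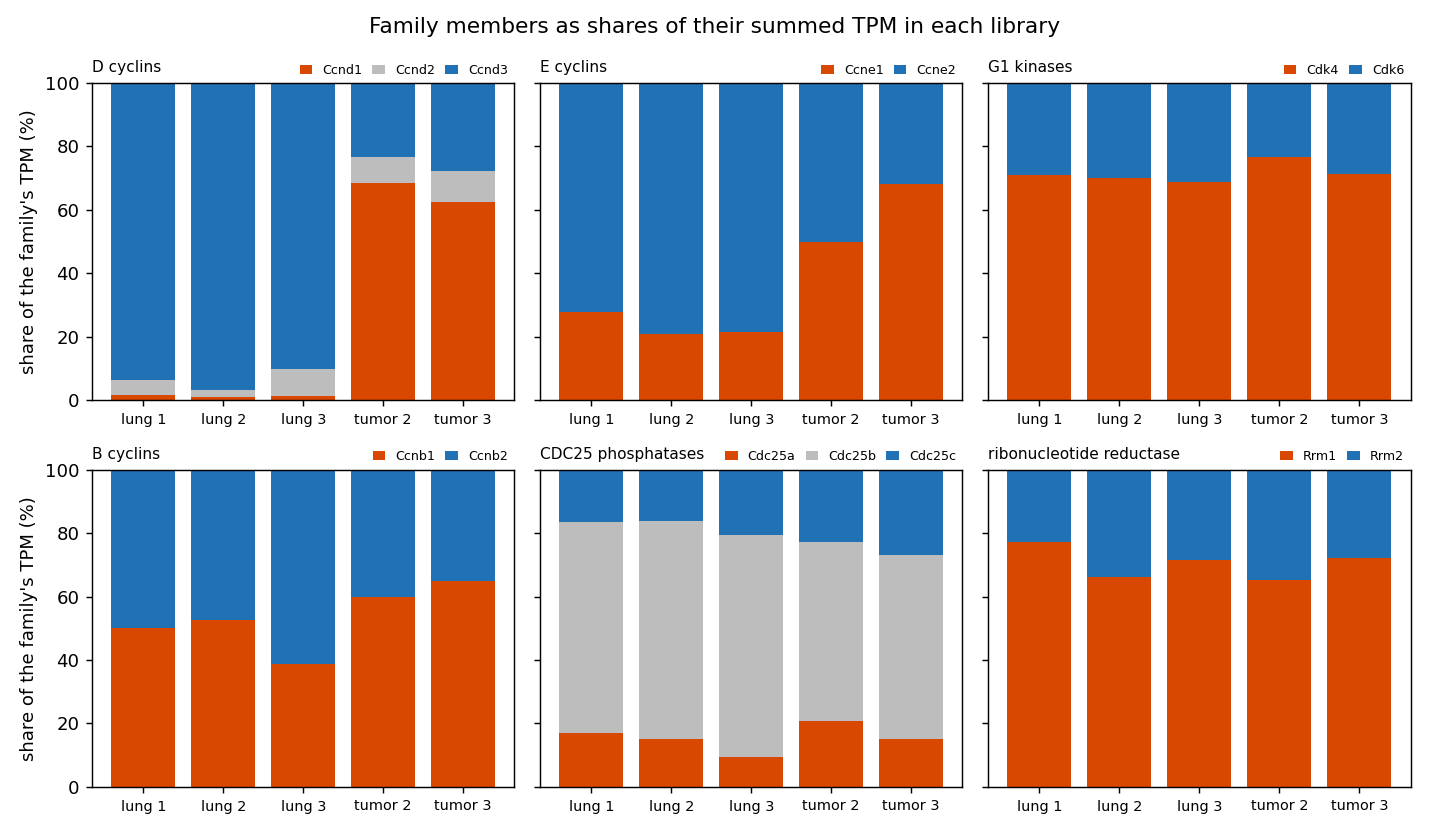
Share of each family's summed TPM held by its members in each library, for D cyclins, E cyclins, CDK4 and CDK6, B cyclins, CDC25 phosphatases and the ribonucleotide reductase subunits, with stacked bars that add to 100%. Ccnd1 (orange) takes up at most 1.62% of the D cyclin bars in lung and at least 62.4% in tumor, while the CDK4 and CDK6 bars look alike in all 5 libraries.

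Genes of chromosome structure and of the mitotic apparatus rose as well. Top2a, the topoisomerase that untangles chromosomes, was at 7.51, 4.89 and 7.54 TPM in lung and at 99.2 and 73.5 TPM in tumor, 13.0-fold higher (3.52 ± 0.26, adjusted p = 0.00115), and it was the highest G2/M transcript in tumor. Mki67, which encodes the Ki-67 antigen used to score proliferation in tissue sections, gave a much smaller difference. It was at 8.45, 8.09 and 11.4 TPM in lung and at 19.2 and 19.6 TPM in tumor, 2.09-fold higher (1.00 ± 0.20, adjusted p = 0.0105). By mean TPM it ranked 3 of the 22 G2/M genes in lung and 11 of 22 in tumor. The Mki67 groups did not overlap, but the call was lost without tumor replicate 2 (adjusted p = 0.0717) or without tumor replicate 3 (adjusted p = 0.0674).

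Of the chromosomal passenger complex, which corrects faulty attachments, Birc5 (survivin) was at 2.24, 1.94 and 1.48 TPM in lung and at 43.5 and 26.1 TPM in tumor, an 18.4-fold rise. Cdca8 (borealin) rose 9.45-fold. The kinase of the complex, Aurkb, rose 6.76-fold, from 2.07, 5.67 and 1.88 TPM in lung to 25.7 and 17.6 TPM in tumor, and its call was lost without tumor replicate 2 (adjusted p = 0.0773). The spindle checkpoint kinases Bub1 and Bub1b rose 10.6-fold and 5.21-fold. Cenpf, a kinetochore protein, had one of the highest folds of the group but low levels, at 0.694, 0.675 and 0.369 TPM in lung and at 12.0 and 15.9 TPM in tumor (24.1-fold). The kinetochore motor gene Cenpe rose 5.91-fold, a call that was lost without tumor replicate 2 (adjusted p = 0.0512).

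Among the spindle genes, the motor gene Kif11 rose 8.74-fold, Nusap1, which bundles microtubules, 8.75-fold, and Stmn1 5.57-fold. Stmn1 encodes a tubulin-binding protein, and it was at 16.1, 14.5 and 14.6 TPM in lung and at 94.3 and 73.1 TPM in tumor (2.39 ± 0.18, adjusted p = 0.00116). Ube2c encodes the ubiquitin-conjugating enzyme that works with the anaphase promoting complex. It was at 4.20, 4.68 and 3.74 TPM in lung and at 67.6 and 42.2 TPM in tumor, 13.1-fold higher (3.39 ± 0.25, adjusted p = 0.00117). In each of these 4 genes both tumor values exceeded every lung value.

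The CHR word was the commonest match besides the CCAAT box in the windows of the G2/M genes. Of 17 windows of 17 genes, 11 (64.7%) held a CHR word, against 12.7% of the windows of tested genes, and all 11 of these also held a CCAAT box, a combination found in 5.10% of the windows of tested genes. A CCAAT box was found in 15 of 17 windows (88.2%) and an E2F word in 3 (17.6%), while the windows of Birc5 and Nusap1 held none of the words. Pairs of CCAAT boxes in the same orientation with starts 31 to 33 bases apart, a spacing picked after the matches were seen, occurred in 5 of the 17 windows (Aurka, Ccnb1, Ccnb2, Cdk1 and Ube2c). Such pairs occurred in 1.34% of the windows of tested genes and in none of the G1 and S phase windows. The stretches of Cdk1 (chr10:69352913-69353032, minus strand), Top2a (chr11:99024190-99024309, minus strand) and Ccnb1 (chr13:100786487-100786606, minus strand) are shown as examples with high folds, with CCAAT, CHR and E2F words of either strand in capitals. Cenpf, Birc5, Plk1 and Ube2c (24.1, 18.4, 17.3 and 13.1-fold) had higher folds than Top2a (13.0-fold) and are not shown. The first capitals of Ccnb1 are an E2F word that overlaps a CCAAT box. Its window did not hold TTTGAA, the only form of the CHR that was searched.
Cdk1: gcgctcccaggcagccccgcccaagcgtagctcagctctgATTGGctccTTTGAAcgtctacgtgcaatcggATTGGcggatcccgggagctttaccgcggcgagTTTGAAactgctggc
Top2a: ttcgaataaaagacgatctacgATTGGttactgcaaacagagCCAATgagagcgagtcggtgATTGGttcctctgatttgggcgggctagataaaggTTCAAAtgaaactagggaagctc
Ccnb1: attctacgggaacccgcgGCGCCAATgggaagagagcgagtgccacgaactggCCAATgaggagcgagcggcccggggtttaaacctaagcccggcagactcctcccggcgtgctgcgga

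Most of the 43 genes differed between the 2 tumor libraries in 1 direction. Tumor replicate 2 was above tumor replicate 3 for 38 of the 43 genes, by a median of 1.24 times, and for all 11 S phase genes, 20 of 22 G2/M genes and 7 of 10 G1 genes. Ccnb2, with 30.7 and 17.4 TPM, and Cdc25a gave the widest gaps. The exceptions were Ccnd2, Cdk6, Ccne1, Mki67 and Cenpf. Of the 121 other cell cycle genes described below, 100 were also higher in tumor replicate 2, again by a median of 1.24 times. The share of all tested genes with this direction was not computed. Mitochondrially encoded genes took 9.01% of TPM in tumor replicate 2 and 15.1% in tumor replicate 3. The scaling factors of tumor replicates 2 and 3 were 1.056 and 1.052 by TMM, and 1.106 and 1.079 by median ratio. Whether the gap is an offset of the whole library was not tested. Epithelial markers summed to nearly the same TPM in the 2 libraries, fibroblast markers were higher in tumor replicate 2, and neutrophil, leukocyte and macrophage markers were higher in tumor replicate 3. Without tumor replicate 2 the median difference was 2.22 over the 43 genes and 0.0056 over all tested genes. Without tumor replicate 3 these medians were 2.57 and 0.0, against 2.39 and 0.018 with all libraries.

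Other genes of the cell cycle machinery, 121 in 8 lists, moved mostly in the same direction. Of 120 tested genes 89 rose, 8 fell and 23 were not called, with a median difference of 1.49 against 0.018 for all tested genes, of which 31.6% were called higher and 27.0% lower. Those 8 fell relative to total TPM, and 4 to 6 of them were called in the fits that left out a library. Under the pan-leukocyte centring all 8 turned positive and were called higher, beside 14256 of all 16387 tested genes. That centring raised every difference by the same amount, so the change of sign is no separate result about these 8 genes. The highest medians were those of cytokinesis, kinetochore and checkpoint genes. Of 15 mitotic kinesin and cytokinesis genes 13 rose and 1 fell (median 2.17), with the smallest p for Anln, which encodes anillin of the contractile ring (2.76 to 40.1 TPM by means), Racgap1 (7.14 to 53.3 TPM) and Prc1 (3.82 to 34.2 TPM). Centromere and kinetochore genes rose in 16 of 17 cases (median 1.91), led by Zwint, Spc24 and Sgo1. Of 8 checkpoint genes 7 rose (median 1.87), with Mad1l1, Mad2l1 and Wee1, the kinase that restrains CDK1, first by p. The checkpoint acts on the anaphase promoting complex, whose genes gave a smaller median. Of 18 genes of the anaphase promoting complex and separase 14 rose and 1 fell (median 1.20). Cdc20, the activator that starts anaphase, was at 1.78, 1.90 and 1.66 TPM in lung and at 33.1 and 23.6 TPM in tumor (3.38 ± 0.21, adjusted p = 0.00100), and the complex subunits Cdc16 and Anapc1 followed.

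Lists that act earlier in the cycle held both risers and genes that were not called. Replication fork genes rose in 14 of 17 cases, with 1 lower (median 1.60), and Lig1, the DNA ligase that joins Okazaki fragments, went from a mean of 4.25 to 28.8 TPM, with the polymerase genes Pole and Pola1 next by p. Of 17 genes of origin licensing and firing 11 rose and none fell (median 1.33), led by Orc6, Gins4 and Gins2. The regulators of the RB, E2F and DREAM pathway were split, with 11 of 18 higher and 4 lower (median 0.83), beside 31.6% and 27.0% of all tested genes. Foxm1, an activator of G2/M genes, was at 1.92, 1.20 and 2.35 TPM in lung and at 17.5 and 13.9 TPM in tumor (2.57 ± 0.26, adjusted p = 0.00175), and E2f5 and E2f6 rose as well. Rb1, which encodes the retinoblastoma protein itself, fell from 20.1, 17.9 and 28.4 TPM in lung to 5.45 and 11.4 TPM in tumor (-1.35 ± 0.36, adjusted p = 0.0258). The call of Rb1 was lost in 4 of the 5 fits that left out a library (all but tumor replicate 3, adjusted p of 0.0617 to 0.127). The other 3 that fell were E2f2, at means of 22.8 TPM in lung and 7.10 TPM in tumor, Rbl2 and Lin54. The call of Lin54 (-0.65) was lost without lung replicate 1, 2 or 3 (adjusted p of 0.0576, 0.0652 and 0.0760). It was also lost without tumor replicate 2 (difference -0.70) or tumor replicate 3 (-0.61). That of Rbl2 (-0.78) was lost without lung replicate 1 or 3 (0.0744 and 0.0787) and without tumor replicate 3 (difference -0.57). E2f2 stayed lower in each of these fits. Of 10 tested genes among other cyclins and kinase partners 3 rose (Cks1b, Ccnf and Skp2), close to the 31.6% of all tested genes, 1 fell and 6 were not called (median 0.34), while Ccna1 was too low to be tested.

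Single genes moved against their lists. Kif23, a kinesin of the central spindle, was at 102, 139 and 131 TPM in lung and at 48.5 and 47.9 TPM in tumor (-1.33 ± 0.19, adjusted p = 0.00361). Pttg1 (securin, the separase inhibitor) was at 41.4, 49.2 and 43.6 TPM in lung and at 18.7 and 12.7 TPM in tumor (-1.47 ± 0.22, adjusted p = 0.00408). Ccng2, an unconventional cyclin linked to cell cycle arrest, was at 92.0, 91.6 and 93.9 TPM in lung and at 30.8 and 36.6 TPM in tumor (-1.43 ± 0.15, adjusted p = 0.00179). These 3 genes, together with Rpa2 of the replication fork (17.0 to 8.25 TPM by means), lay above the median TPM of their lists in every lung library. The call of Rpa2 (-0.94, adjusted p = 0.0317) was less firm. It was lost without lung replicate 1 (adjusted p = 0.0789) or lung replicate 3 (0.0603) and with a limit of 2-fold. The call was also lost without tumor replicate 2 (difference -1.08) or tumor replicate 3 (-0.80). The same held with the replicate number as a block (adjusted p = 0.126) and with no filter on mean TPM (0.0581).

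**Figure D4:**
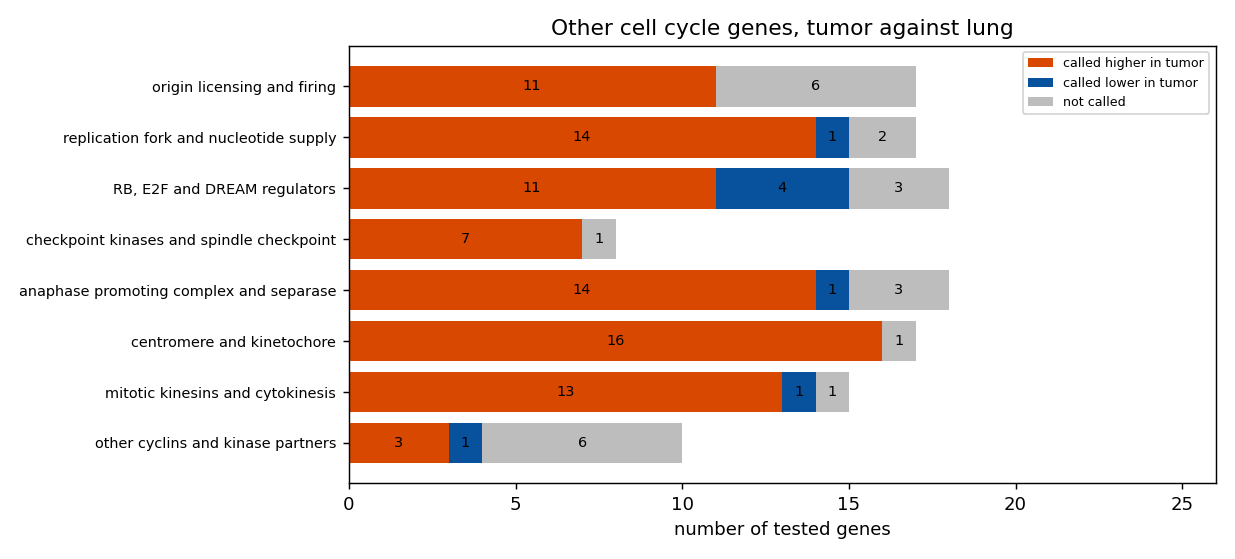
Number of tested genes called higher in tumor (orange), called lower (blue) or not called (gray) in each of 8 lists of other cell cycle genes, with the counts printed in the bars. The kinetochore bar holds 16 higher genes and 0 lower, and the bar of RB, E2F and DREAM regulators holds 11 higher and 4 lower.

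Some values carry uncertainty from neighbouring or similar genes. In GENCODE M21, 24 of the 43 genes overlap another annotated gene and 13 a protein-coding one, and whether the libraries keep strand is not stated in the sources read here, so reads from overlapping genes could not be told apart with certainty. Cdk4 overlaps Tspan31, which was at 23.2, 19.4 and 27.5 TPM in lung and at 58.3 and 54.4 TPM in tumor. Ccnd3 overlaps Bysl, which stayed between 3.74 and 8.01 TPM, and Ccnd1 overlaps the gene listed as LTO1, which stayed between 12.2 and 20.9 TPM. Mcm7 overlaps Cops6, which was at 25.7 to 32.3 TPM in lung and at 141 and 124 TPM in tumor. Rows named as copies of 6 of the genes never exceeded 0.632 TPM.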

How the data were processed

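RNA was measured in 3 lung and 2 tumor libraries. The authors ran Salmon 0.9.1, per the series' design text, against GENCODE M24 transcripts and deposited TPM, with p-values and false discovery rates of their own comparison; its test is not given in the sources read here. TPM keeps no depth, so no count test, interval or floor was possible. Of 55276 deposited rows, 26 with spreadsheet dates as symbols (at most 0.0826% of TPM) were left out.

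Groups came from the tissue label. All 16387 genes averaging 1 TPM or more were fitted on log2(TPM + 1) with limma 3.58.1 (intensity trend, R 4.3.3), two-sided, with Benjamini-Hochberg adjustment over all of them and calls at adjusted p under 0.05 and 1.5-fold, the limits of the design text. Differences on this scale understate low genes, while folds divide mean TPM in tumor by that in lung. The fit was also run on simulated data with few changed genes, unlike these libraries, so that run does not bear on the calls here. Family shares were compared by exact permutation.

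Full statistics are given for families whose members differ in direction and for the 4 smallest p in each phase group. Mcm6, Cdk1, Plk1, Birc5, Aurkb, Cenpf, Mki67, Mcm2, Mcm4, Pcna, Tk1 and E2f1 got library values in addition after these were seen. Other cell cycle lists give the 3 smallest p and minority directions. The genes and lists were chosen with earlier results of these data known. Coordinates are from GENCODE M21 (GRCm38), promoters from RefSeq. The alternatives tried are given with their effects in the closing section.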

Additional observations from a re-analysis of the deposited data

How the results depend on the processing

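Of the 37 called genes, 29 kept the same call in every alternative that tested them, at most 18, since the filter of 5 TPM tested 37 of the 43 genes. Higher calls among the 43 genes numbered 29 to 36 when each library was left out, and in those fits Ccnd3 was always lower. Where only 1 tumor library was left, that library was assumed to vary like the lung libraries. Centring on the pan-leukocyte list gave 0 lower calls among the 43 genes, 9 higher and 0 lower in the G1 group, and medians of 5.92 (all), 4.60 (G1), 6.08 (S phase) and 6.08 (G2/M). Over all tested genes it gave 14256 higher and 83 lower calls and a median of 3.55. Median-ratio rescaling moved the median of all tested genes to -0.12, of the 43 genes to 2.22 and of the G1 group to 0.93, with 4683 higher and 4916 lower calls over all genes in place of 5178 and 4431, and leaving out mitochondrially encoded genes moved these to 0.13 for all tested genes and 1.19 for G1. Pseudocounts of 0.1 and 0.01 gave medians of 2.81 and 2.82 (all), 1.31 and 1.33 (G1) and 3.10 and 3.18 (G2/M), and 0.01 gave 2.77 for S phase. A filter of 5 TPM left 37 genes with a median of 2.58 and 7 G1 genes with 1.73. Leaving out each library gave medians of 2.22 to 2.57 (all), 0.92 to 1.17 (G1), 2.26 to 2.66 (S phase) and 2.33 to 2.69 (G2/M), and share differences of 61.2 to 67.2 points for Ccnd1, 26.6 to 44.8 for Ccne1, 1.16 to 6.54 for Cdk4 and -6.29 to 0.520 for Rrm1, which turned positive without tumor replicate 2.

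Among genes that were not called, Cdc25b, Ccnd2 and Ccne2 changed sign in some alternatives. Cdc25b was positive with the pan-leukocyte centring (3.50), without mitochondrially encoded genes (0.094), with the replicate block (0.010) and in 3 of 5 fits that left out a library, which ranged from -0.17 to 0.12 (0.010 and 0.031 without lung replicate 1 or 3). Ccnd2 was negative after median-ratio rescaling (-0.0064) and ranged from -0.23 to 0.57 when a library was left out, negative without lung replicate 2. Ccne2 ranged from -0.11 to 0.45 in such fits, negative without tumor replicate 2. Ccnd3 was at 0.87 with the pan-leukocyte centring. The title numbers are shared by 2 pairs of libraries, and the sources read here do not say whether they pair animals. The deviation correlations of 0.0034 and 0.083 cannot decide this, since the deviations of 2 tumor libraries mirror each other. A fit with the number as a replicate block called 32 of the 43 genes higher and Ccnd3 lower, and 3662 higher and 3449 lower over all genes, and it ended the calls of Pcna, Mcm4, Tk1 and Mki67 (adjusted p of 0.0805, 0.134, 0.0608 and 0.0641). Without tumor replicate 2, 3454 genes were higher and 2831 lower over all genes. With a limit of 2-fold, Pcna and Mcm4 were not called. Except where a value above shows it, the cause of these changes was not tested. TPM keeps no depth, so precision rests on 5 libraries alone.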
